A study of Mus musculus with 22 samples.

Results

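Classical monocytes are the Ly6C-high white blood cells that leave the bone marrow through the chemokine receptor CCR2, circulate briefly and enter organs, where they can turn into macrophages or dendritic cells. They carry lysozyme, fibronectin, coagulation factor XIII and many receptors for microbial products, and they make cytokines and chemokines soon after an alarm signal. The second blood monocyte class, the nonclassical or patrolling monocyte, has little Ly6C and CCR2 and depends on the nuclear receptor Nr4a1.

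The cells described here were the classical monocytes of the solid organs, 1974 of 93055 barcodes kept in 11 libraries (2.12%). Each barcode is read as 1 droplet, and each unique molecular identifier (UMI) as 1 transcript molecule caught in it. Barcodes with at least 200 detected genes and at most 25% mitochondrial UMIs were kept, out of 176676 barcodes in these libraries and 179929 in all 22 libraries of the series. A kept barcode was called a classical monocyte when it held a UMI of Ly6c2, a UMI of Ccr2 or Chil3 and a UMI of Lyz2, and none of C1qa, Cd79a, Cd3e, Retnlg, Treml4 and Siglech. These 10 genes chose the cells, so their levels are no finding. The organ libraries (tissue) each pooled kidney, liver, lung and stomach with epididymis in males or uterus in females, the organs having been perfused, digested with enzymes and marked with hashtag antibodies. The hashtags were not used here, so no monocyte had an organ of origin.

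All mice carried Prom1-CreERT2, a tamoxifen-inducible recombinase driven by the Prom1 promoter, and the Rosa26ZSG reporter, which turns recombined cells green. They had no tumours and were labelled Nalcn-wt (wt), Nalcn-het (het) or Nalcn-null (null) for a sodium leak channel gene that this recombinase deletes, so deletion was limited to cells of the Prom1 lineage. Wt libraries came from males of 571 (replicates 1 and 2) and 608 days (replicate 3) and females of 611 (replicate 4) and 654 days (replicate 5). Both het libraries came from males of 551 days, and the null libraries from a male of 552 days (replicate 2) and a female of 611 days (replicate 3). Another 2 tissue libraries, a male of 610 days labelled rep 3 and a female of 647 days labelled rep 1, carried conflicting genotypes in their labels and entered no comparison of genotypes. The former is het by its title and null by its strain entry, and the latter is null by its title with no Nalcn allele in its strain entry. The blood counterpart was ntCZC, the ZSG+ cells sorted from peripheral blood, in which 140 of 2109 kept barcodes passed the same rule. The labels name no animals, so p-values measure the spread between libraries, and the pairs of wt and het libraries that share sex and age may each be 1 mouse. Blood and tissue libraries that share genotype, sex and age may come from the same mice too.

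The labels were first checked in the cells. Nalcn gave 1 UMI in all these monocytes (in wt replicate 4), too few to check a genotype. Total UMIs per tissue library ran from 8571019 to 139793927, and the median monocyte held from 1008 UMIs in null replicate 2 to 6941 in wt replicate 1. Monocytes of wt replicate 5 numbered 6, so this library entered the counts of cells and not the tests of genes. No barcode sequence was shared between monocytes of any of the 55 pairs of tissue libraries.

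Since Ly6c2 defines the cells and has a close neighbour, Ly6c1, the start of both coding sequences is shown. Ly6c2 lies at chr15:75108158-75111970 and Ly6c1 at chr15:75044018-75048830, both on the minus strand of mm10. Of 393 coding bases 384 were identical (97.7%), and the last 300 transcript bases, where 3′ reads fall, were 93.5% identical. Coding bases 1 to 90 follow in the 5′ to 3′ direction from GENCODE vM21, with the 6 bases that differ in capitals.
Ly6c2: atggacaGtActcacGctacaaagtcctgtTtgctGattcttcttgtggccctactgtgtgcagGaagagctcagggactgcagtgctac
Ly6c1: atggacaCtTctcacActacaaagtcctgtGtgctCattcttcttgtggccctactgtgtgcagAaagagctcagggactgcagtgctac

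Reads of such a pair can be shared or misassigned, and Ly6c1 is a gene of endothelial cells. Lyz2 and Lyz1 were 95.05% identical over the coding sequence, and Chil3 and Chil4 94.4%. Ly6c1 reached 16.1, 66.2 and 148 CPM (UMIs of the gene scaled to a common total of the monocytes' UMIs in a library) (lowest, median and highest of the 8 tissue libraries tested), against 107 to 277 CPM in the other barcodes, and did not exceed 2.42 CPM in the blood counterpart.

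Summed per library, the group held genes of classical monocytes, but its cells were uneven. Genes that mark classical monocytes and that the rule did not use were among those standing furthest above the other barcodes of the same libraries. F13a1, the coagulation factor XIII chain, was 25.7-fold higher (median over libraries), Vcan, a matrix proteoglycan, 15.5-fold, and the membrane gene Ms4a4c 11.8-fold. The interferon-induced membrane gene Ifitm6 stood at 17.1-fold, Cd177 at 12.99-fold, Mefv, the pyrin inflammasome gene, at 10.9-fold, Ms4a6c at 10.7-fold and fibronectin Fn1 at 9.99-fold. The other leading genes, at 8.15-fold to 12.0-fold, were Gm9733, Adora2b, AI839979, Gpr141, S100a4, Emilin2 and Thbs1. F13a1 and Cd177 were higher in each of the 10 libraries with at least 10 monocytes, and lower in wt replicate 5 with its 6 (log2 ratios of -1.23 and -2.71). These ratios describe cells chosen by gene and carry no test.

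Barcodes at the edge of the rule were many. A single Ly6c2 UMI admitted 771 of the 1974, and 12428 further barcodes met every other condition at 0 Ly6c2 UMIs. Another 458 were kept out by 1 UMI of 1 excluded gene. A UMI of free RNA in the droplet counts the same as a cell's own.

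Part of the group also held transcripts of other cells. At least 2 UMIs from the strict markers of another class were found in 650 barcodes (32.9%), with alveolar macrophage (187), endothelial (161), nonclassical monocyte (108) and T or NK cell markers (104) the most frequent. At least 2 UMIs of Gpnmb, a gene of lipid-laden macrophages, were found in 247, of which 216 were in wt replicate 2. The highest Scrublet scores of each library were called doublets up to an expected rate, 0.8% per 1000 barcodes and at most 25%. The 16.6% of all kept tissue barcodes so called was therefore set in advance and not measured. Of the 1974, 373 were called (18.9%). A core of 909 (46.05%) had a Ccr2 UMI, fewer than 2 UMIs of every other class and fewer than 2 of Gpnmb. Its share ran from 30.8% in wt replicate 2 to 78.0% in the library without a group labelled rep 3. The core was defined after the data were seen, and the gene tests were repeated in it.

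**Figure D1:**
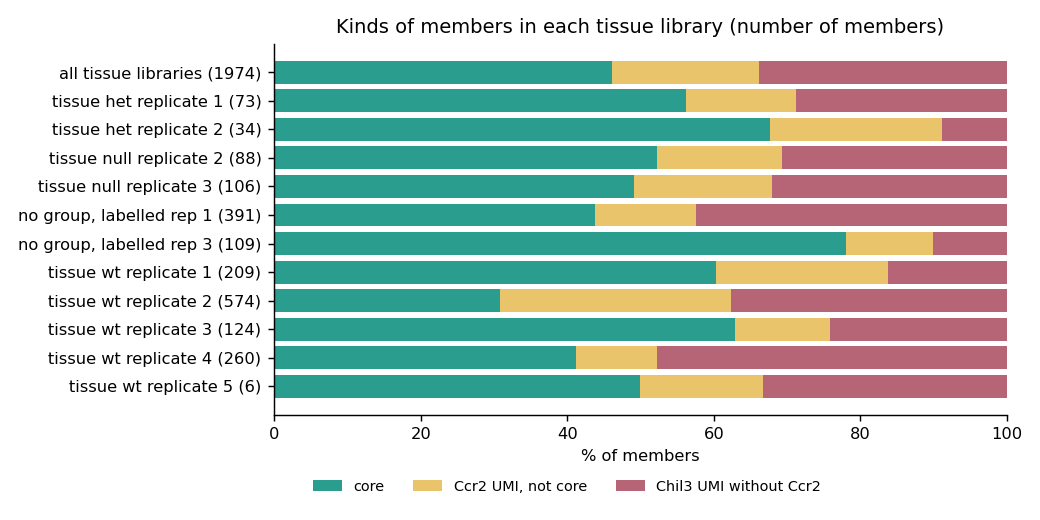
Share of each tissue library's classical monocytes (members; percent, bars stacked to 100, number of members in brackets) that were core, had a Ccr2 UMI but were not core, or had a Chil3 UMI without Ccr2. The core share was lowest in wt replicate 2 (30.8%) and highest in the library without a group labelled rep 3 (78.0%).

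The core and the remainder differed in monocyte and macrophage genes when pooled over libraries, a description since Ccr2 and the markers set the split. F13a1 stood at 663 CPM in the core, 200 CPM in the other Ccr2-positive cells and 120 CPM in the 668 with Chil3 and no Ccr2. Fn1 fell in the same order, at 1577, 536 and 370 CPM, and Plac8, a leukocyte gene of classical monocytes, at 3221, 1684 and 1244 CPM. Macrophage genes ran the other way. The lipid carrier Fabp5 stood at 250, 1728 and 3260 CPM and the lysosomal protease Ctsd at 527, 1485 and 2234 CPM. Ear1, an alveolar macrophage ribonuclease, stood at 4.45, 115 and 123 CPM. It is among the strict markers, so the split itself set its low level in the core. Median UMIs per barcode were 2688, 4931 and 3275. Chil3 itself is made by alveolar macrophages, and of the 668 lay 216 in wt replicate 2 and 166 in the library without a group labelled rep 1. Wt replicate 2 also held 181 of the 397 other Ccr2-positive cells and 177 of the 909 core cells, so the pooled levels include differences between libraries.

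The monocytes were set beside 3 neighbouring gates of the same libraries, as a description. The gates required Treml4 (nonclassical monocytes, 1490 barcodes), Retnlg together with S100a8 (neutrophils, 4823) or C1qa (tissue macrophages, 5846). F13a1 had a median of 419 CPM over 10 libraries in the monocytes, 14.8 CPM in the Treml4 gate, 20.1 CPM in the Retnlg gate and 63.6 CPM in the C1qa gate. Vcan followed the same pattern, at 148 CPM against 4.98 to 9.92 CPM. The MHC class II chain H2-Aa had a median of 817 CPM in the monocytes and 3761 CPM in the C1qa gate. S100a8, a calprotectin subunit abundant in neutrophils, stood at 206 CPM in the monocytes. Its 7873 CPM in the Retnlg gate is no finding, since a UMI of S100a8 was required there. The Treml4 gate was itself high in Chil3 (4632 CPM) and Ear2 (764 CPM), both also alveolar macrophage genes, so it is called by its gene.

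**Figure D2:**
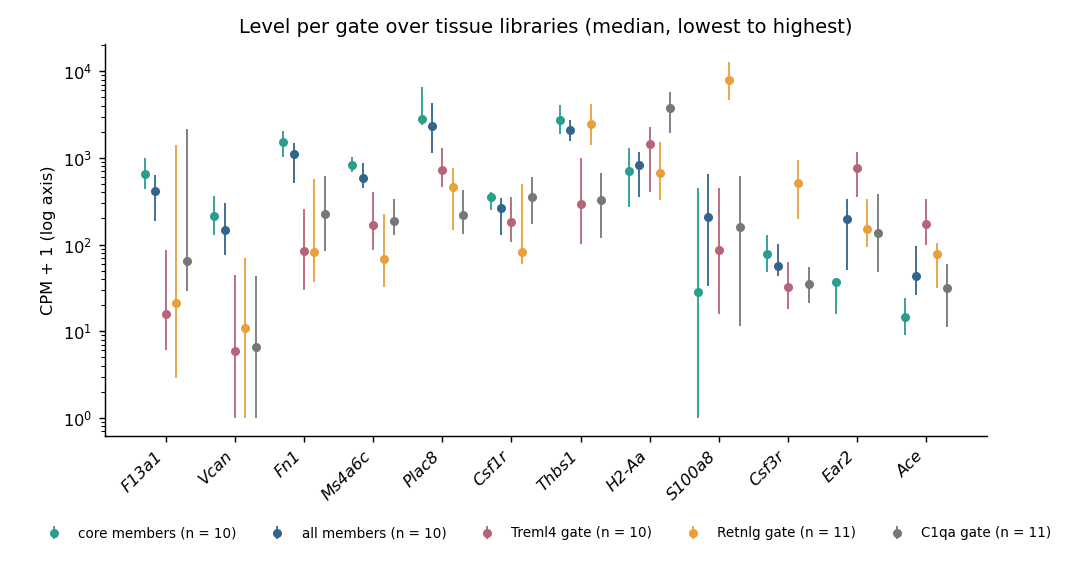
Level of 12 genes (CPM + 1, log axis) in core and all classical monocytes (members) and in the Treml4, Retnlg and C1qa gates, points the medians over tissue libraries and lines the lowest to highest library. Median F13a1 and Vcan were higher in classical monocytes (419 and 148 CPM) than in the 3 gates, though single libraries of the Retnlg and C1qa gates exceeded them for F13a1. The Retnlg gate also required S100a8, so the level of S100a8 in it (7873 CPM) is no finding.

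A UMI of Mki67 or Top2a, both proliferation genes, was found in 90 of the 1974 monocytes (4.56%) and in 23 of the 909 core cells (2.53%). Depth and free RNA enter this share, and a barcode with 0 UMIs may still be a dividing cell, so it is not a rate of division.

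The first comparison asked whether the share of classical monocytes among tissue barcodes differed with Nalcn genotype. The 4 het and null libraries with a group held a smaller share than the 5 wt libraries, and a library without a group that both of its labels give a deleted allele did not. Of kept barcodes, classical monocytes made up 3.52% (95% Clopper-Pearson interval 3.06 to 4.02, 209 barcodes) in wt replicate 1, 3.15% (2.90 to 3.41, 574) in replicate 2 and 2.21% (1.84 to 2.63, 124) in replicate 3. They made up 1.99% (1.76 to 2.24, 260) in wt replicate 4 and 2.09% (0.771 to 4.49, 6) in replicate 5. In het replicates 1 and 2 the shares were 0.974% (0.764 to 1.22, 73) and 0.840% (0.582 to 1.17, 34), and in null replicates 2 and 3 they were 1.01% (0.811 to 1.24, 88) and 1.13% (0.928 to 1.37, 106). Intervals cover counting error only. Among libraries with a group the highest deleted library lay below the lowest wt library, and only the interval of wt replicate 5, with its 6 monocytes, reached the deleted values.

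The mean share was 0.989% ± 0.120 (SD, n = 4) in het and null together and 2.59% ± 0.693 (SD, n = 5) in wt, 2.62-fold higher in wt. An exact two-sided permutation test gave p = 0.00794, the smallest that 126 splits allow (0.0238 after Benjamini-Hochberg adjustment over 3 contrasts). Null alone had a mean of 1.07% ± 0.0860 (SD, n = 2, exact permutation p = 0.0952) and het alone 0.907% ± 0.0945 (SD, n = 2, p = 0.0952), where 21 splits allow no p below 0.0476. Leaving out 1 library at a time kept the difference between -1.75 and -1.37 percentage points, with exact permutation p between 0.0179 and 0.0286. The pattern of shares was already known from earlier results when the test was run. The libraries without a group held 2.52% (labelled rep 3) and 2.45% (labelled rep 1), within the range of the wt libraries. The library labelled rep 3, named het or null, lay above 3 of the 5 wt libraries, so the deleted and wt shares overlap when it is counted as deleted. The p-values above leave it out, and hold only for the libraries with a group.

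**Figure D3:**
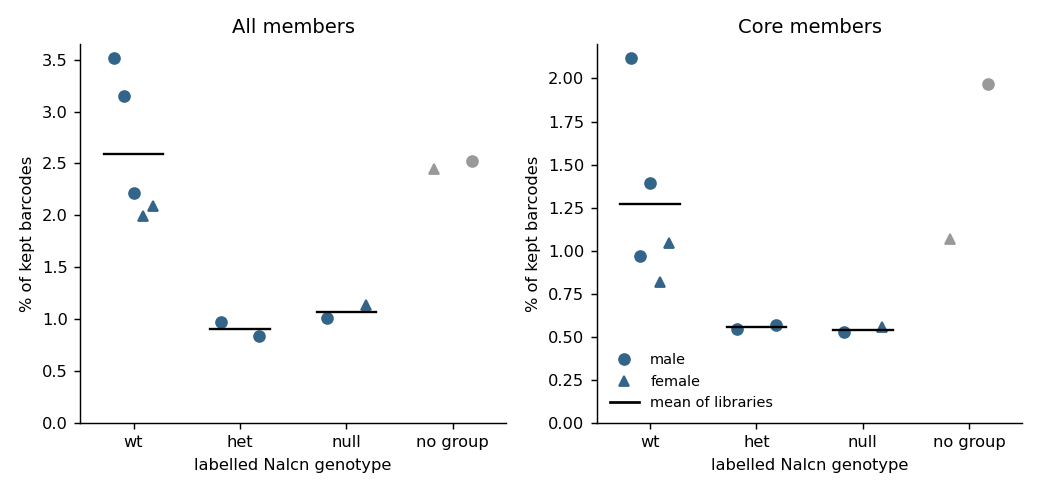
Share of kept barcodes (percent) that were classical monocytes, all members on the left and core members on the right, by labelled genotype, with 1 point per tissue library (circles male, triangles female) and lines for group means. On the left the 4 het and null libraries lay at 0.840 to 1.13%, the 5 wt libraries at 1.99 to 3.52% and the 2 libraries without a group (grey) at 2.45 and 2.52%.

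The make-up of the suspensions moved with genotype too. Barcodes with a UMI of Ptprc, the CD45 gene of all white blood cells, made up 51.0 to 74.9% of kept barcodes in wt and 26.6 to 45.6% in het and null libraries. As a share of Ptprc-positive barcodes, classical monocytes averaged 3.79% ± 1.46 (SD, n = 5) in wt and 2.20% ± 0.375 (SD, n = 4) in het and null, with overlapping groups and an exact permutation p = 0.0635. The Treml4 gate held 1.12 to 4.56% of kept barcodes in wt and 0.551 to 2.56% in het and null, and the Retnlg gate 1.13 to 12.5% and 1.49 to 3.00%. Both overlapped between the groups. There were 0.771 to 2.40 classical monocytes per barcode of the Treml4 gate in wt and 0.380 to 1.83 in het and null. The core alone gave 0.550% ± 0.0168 (SD, n = 4) against 1.27% ± 0.520 (SD, n = 5), 2.31-fold higher in wt (exact permutation p = 0.0159). The Ptprc and core tests also leave out the library labelled rep 3, named het or null. It held 5.61% of Ptprc-positive barcodes and a core share of 1.97%, each within the range of the wt libraries. Leaving out a het or null library brought the core's exact permutation p to 0.0536, and leaving out a wt library to 0.0286. Fewer monocytes per organ, another mix of organs and another yield of the other cells cannot be told apart in these shares. Age entered no test, with het and null mice of 551 to 611 days and wt mice of 571 to 654 days.

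The second comparison asked whether the genes of these monocytes differed with genotype, in 4 wt, 2 het and 2 null libraries with UMIs summed per library and sex as a covariate. By edgeR's quasi-likelihood test at an adjusted p of 0.05, 0 of 5596 genes were called for het and null together, for null or for het (percent called 0.0 in each). At an unadjusted p under 0.05 there were 303, 235 and 336 genes, and DESeq2 called 9, 8 and 9. The listed genes below were therefore read as values. The lowest p belonged to S100a8 (chr3:90668978-90670035), whose protein with S100A9 forms calprotectin. Its level in wt replicates 1 to 4 was 265, 250.5, 489 and 413 CPM. In het replicates 1 and 2 it was 56.2 and 32.2 CPM, and in null replicates 2 and 3 it was 33.7 and 65.1 CPM.

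The S100a8 groups did not overlap, with means of 354 ± 116 (SD, n = 4) in wt and 46.8 ± 16.4 CPM (SD, n = 4) in het and null. The log2 difference was -2.87 (SE 0.34) and the adjusted p 0.0784 in edgeR. In the core the log2 difference was -2.76 (adjusted p 0.575 in edgeR), and DESeq2 called S100a8 in all monocytes. It was also called by edgeR without wt replicate 1, 2 or 3. Neutrophil transcripts moved with it. In the other kept barcodes S100a8 stood at 131 to 1315 CPM in wt and 95.6 to 270.6 CPM in het and null, and the summed neutrophil markers within the monocytes, a sum that includes S100a8 itself, at 567 to 1276 CPM and 84.2 to 250.5 CPM. Their part in the difference was not tested.

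The other genes of lowest p did not pass the test. Tmem189 (log2 -1.28, edgeR adjusted p = 0.474) and Ptafr, the receptor for platelet-activating factor (log2 -1.01, adjusted p = 0.824), were lower in value in het and null. Fabp1 (log2 1.78, adjusted p = 0.675), Clu (log2 1.295, adjusted p = 0.824) and Fmo2 (log2 1.20, adjusted p = 0.824) were higher in value. Fabp1 is a marker on the alveolar macrophage list used here, and Clu and Fmo2 are abundant in epithelium. In the contrast of null alone S100a8, Tmem189 and Ier3 had the lowest p among genes lower in value and Clu and Pabpn1 were among the lowest of those higher. In that of het alone they were S100a8, Gatm and Ccnd1, and Fmo2, Igfbp6 and Cxcl3.

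By gene list, none of the members of any list was called. The 17 inflammatory genes tested had a median log2 difference of -0.71 for het and null against wt, with 1 positive, beside a median of -0.03 over all genes. Their summed level in the other kept barcodes had means of 5592 CPM in wt and 2269 CPM in het and null. The 4 red cell markers tested in the monocytes had a median of -2.95, with 0 positive. The 19 interferon-stimulated genes had a median of -1.23, also with 1 positive. In the monocytes of wt replicate 2 the interferon-stimulated gene Rsad2 stood at 1197 CPM, against at most 96.6 CPM in the other 7 tissue libraries, and Isg15 at 714 against at most 209 CPM. The 22 monocyte identity genes had a median of 0.06 and the 7 MHC class II genes of -0.10, and in the core 6 MHC class II genes had a median of -0.38 with 0 positive. In the core, null against wt gave 5 calls of 3094 (0.162%), all higher. These were Lcn5, Defb20, Spag11b and Gpx5, which are genes of the epididymis, and Ttr, a plasma carrier protein of the liver.

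The third comparison set the monocytes of tissue beside ZSG+ blood barcodes that passed the same rule. The blood libraries used were wt replicate 1 (male, 571 days, 62 barcodes), het replicate 4 (male, 551 days, 18), null replicate 2 (male, 552 days, 39) and null replicate 4 (female, 613 days, 16), against the 8 tissue libraries with sex as a covariate. All but null replicate 4 match tissue libraries in genotype, sex and age. Both arms may thus hold cells of the same mice, while the test treats the libraries as independent. Of 5170 genes 1714 were called (33.2%), 972 higher in tissue (18.8%) and 742 lower (14.4%). Of the 5170, 127 were at 0 UMIs in the blood monocytes and passed the filter on counts only through tissue. These could only come out higher, and those called count in the 18.8%. In the core alone 980 of 2916 were called (33.6%), 593 higher (20.3%) and 387 lower (13.3%). There 24 of the 2916 were at 0 UMIs in blood. Of the genes called in all monocytes and tested in the core, 477 of 547 higher and 331 of 555 lower were called there in the same direction. The tissue cells were also enzyme-digested, pooled across organs and not sorted for ZSG, which cannot be told apart from the site in the body. The 3 genotypes were in both arms, and with sex and genotype as covariates 1402 of 5170 genes were called (844 higher, 558 lower).

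Transcripts of other cells moved with this comparison. Of the 972 genes higher in tissue, 609 (62.7%) stood lower in the monocytes than in the other tissue barcodes. The same share over all genes tested was not counted, so 62.7% is a description and no enrichment. All 10 epithelial markers tested were higher, with a sum of 376 to 3310 CPM in tissue monocytes and 0 to 9.78 CPM in the blood counterpart. The 7 endothelial markers (64.4 to 555 CPM against 0 to 4.84), the 6 of alveolar macrophages (404 to 1230 CPM against 0 to 2.71) and the 4 of red cells were also all higher. At 0 UMIs in the blood monocytes were 9 of the 10 epithelial, 5 of the 7 endothelial and 5 of the 6 alveolar macrophage markers, which passed the filter on counts only through tissue and could only come out higher, so the sums and not the counts are read here. Gkn1 and Tff1 of the stomach, Alb of the liver and Slc34a1 of the kidney were among the epithelial markers, at 0 UMIs in the blood monocytes. In the core the summed epithelial markers were 262 to 3586 CPM, against 0 to 15.1 CPM in blood. For that reason the levels in the other barcodes are given beside some of the genes below, and their part in the differences was not tested. Counts by list are to be read beside the 18.8% higher, which includes genes at 0 UMIs in blood, and the 14.4% lower of all genes.

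Inflammatory genes were higher or did not pass. Of 16 tested, 9 were higher and 0 lower, against 18.8% higher and 14.4% lower of all genes, with a median log2 difference of 1.79 beside 0.01 over all genes. In the core 8 of 13 were higher, with a median of 1.00. Ptgs2, Cxcl1 and Cxcl3 were at 0 UMIs in blood and passed the filter on counts only through tissue, so these 3 could only come out higher. The same holds for every gene below at 0 UMIs in blood. It holds as well for genes too low in blood to pass the filter there, among them Il1rn, Clec4d, Crem and Hspa1a. Cxcl2 and Thbs1 were too low in part of the blood libraries and also passed the filter only through tissue. P-values are not given for genes at 0 UMIs or for these named genes. The 9 were Il1b, Tnf, Cxcl1, Cxcl2, Cxcl3, Ccl4, Ptgs2, Tnfaip3 and Il1rn.

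Ptgs2 (chr1:150100031-150108227, plus strand), the inducible enzyme of prostaglandin synthesis, ranged over 42.1, 105 and 225 CPM (lowest, median and highest of the tissue libraries). The blood monocytes held 0 UMIs in all 4 libraries. Against a floor of 3 UMIs over these libraries (2.94 CPM) Ptgs2 was at least 36.7-fold higher in tissue. Other barcodes held 29.5 to 136 CPM in tissue and 0.641 to 19.6 CPM in blood, so Ptgs2 was not particular to the monocytes.

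Il1b, the pro-inflammatory cytokine interleukin 1 beta, ranged over 416, 715 and 1532 CPM in tissue monocytes. In the blood wt, het and 2 null libraries it was 200.2, 44.1, 314 and 176 CPM. Every tissue library lay above every blood library, with a log2 difference of 2.21 (SE 0.46, edgeR adjusted p = 0.00159) and 2.65 in the core. The other barcodes showed no such order, at 192 to 763 CPM in tissue and 205 to 1331 CPM in blood. Its natural antagonist Il1rn stood at 40.9, 149 and 510 CPM in tissue and at most 19.3 CPM in blood (log2 4.14, SE 0.86). Il1rn passed the filter on counts only through tissue and could only come out higher.

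Cxcl2, which draws neutrophils through CXCR2, ranged over 295, 820 and 1747 CPM in tissue. In the blood libraries, in the same order, it was 0, 147, 2.42 and 254 CPM. The groups were apart by a narrow margin, with a log2 difference of 4.04 (SE 0.86) and 4.30 in the core. Cxcl2 was too low in part of the blood libraries to pass the filter on counts there, and passed only through tissue. Other barcodes held 392 to 3530 CPM in tissue and 89.2 to 1744 CPM in blood. Cxcl3, a CXCR2 ligand of the same chromosome 5 cluster, was at 0 UMIs in blood monocytes and at least 14.8-fold higher in tissue. Its relative Cxcl1 was at least 9.71-fold higher, though 2 of the 8 tissue libraries were at 0. Nfkbia, the inhibitor of NF-kB that rises with its activity, did not pass the test (log2 -0.03, edgeR adjusted p = 0.960), nor did the chemokine genes Ccl2 (log2 0.03, 0.986) and Ccl3 (log2 1.11, 0.360).

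The start regions of Cxcl2 and Cxcl3 are printed because both windows hold the same letters. Cxcl2 was called higher in tissue, while Cxcl3 passed the filter on counts only through tissue and could only come out higher. The motif searched, on either strand, was the NF-kB consensus, the site of the factor that drives many inflammatory genes. Each window is the 250 bases before the RefSeq start, plus strand of GRCm38.p6, chr5:90903649-90903898 for Cxcl2 and chr5:90785851-90786100 for Cxcl3, with the motif in capitals (a pair of overlapping matches in each).
Cxcl2: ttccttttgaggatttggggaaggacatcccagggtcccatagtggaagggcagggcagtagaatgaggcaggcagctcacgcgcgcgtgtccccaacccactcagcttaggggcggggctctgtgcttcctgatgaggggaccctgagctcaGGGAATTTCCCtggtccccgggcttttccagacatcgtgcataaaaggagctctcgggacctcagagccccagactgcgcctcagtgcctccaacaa
Cxcl3: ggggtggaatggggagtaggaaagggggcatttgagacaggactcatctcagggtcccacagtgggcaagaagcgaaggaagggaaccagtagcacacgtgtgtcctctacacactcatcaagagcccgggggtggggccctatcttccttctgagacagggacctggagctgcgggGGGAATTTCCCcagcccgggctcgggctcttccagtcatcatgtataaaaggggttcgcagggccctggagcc

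Of the 9 inflammatory genes higher in tissue, 8 had a window and 4 of these held the NF-kB consensus (Cxcl1, Cxcl2, Cxcl3 and Tnfaip3). It was in 11.04% of the 4120 tested genes with a window and in 8.23% of 27025 genes overall. Ccl4 had no window. The NF-kB consensus was as well in 5 of 5 genes with a window that were called higher on the list of early and heat shock genes below (Fosb, Hspa1a, Hspa1b, Hspe1 and Ier3). The windows of Ptgs2, Il1b, Il1rn and Tnf held no match, which says only that these letters are not in them.

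Immediate early and heat shock genes formed a joint list. Of its 18 genes 6 were higher, 1 lower and 11 did not pass, with a median log2 difference of 0.69 beside 0.01 over all genes. Hspa1a, the inducible HSP70 chaperone, ranged over 191.5, 389 and 1279 CPM in tissue, the highest in het replicate 2. In blood it was 16.2, 7.34, 9.67 and 58.7 CPM. Tissue lay above blood without overlap (log2 4.77, SE 0.61). Hspa1a passed the filter on counts only through tissue and could only come out higher. The other barcodes were split as widely, at 245 to 635 CPM in tissue and 9.46 to 36.9 CPM in blood. Its twin Hspa1b differed by 6.73 (log2, SE 0.64), and reads of this pair cannot be safely assigned. Hsp90aa1 (log2 2.21), Hspe1 (0.76), Fosb and Ier3, an early survival gene (log2 3.19), were also higher, and Ier2 was lower (log2 -1.49). Fos (log2 -0.58, edgeR adjusted p = 0.150) and Jun (0.88, 0.157) did not pass.

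The windows of the HSP70 pair show how alike these copies are. Both are the 250 bases before the start on the minus strand of GRCm38.p6, chr17:34972157-34972406 for Hspa1a and chr17:34959239-34959488 for Hspa1b. Capitals mark a heat shock element, searched on both strands as GAANNTTC.
Hspa1a: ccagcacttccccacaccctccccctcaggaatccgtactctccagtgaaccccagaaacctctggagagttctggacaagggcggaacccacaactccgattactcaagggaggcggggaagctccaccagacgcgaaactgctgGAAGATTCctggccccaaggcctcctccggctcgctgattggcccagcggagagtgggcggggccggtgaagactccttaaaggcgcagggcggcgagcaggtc
Hspa1b: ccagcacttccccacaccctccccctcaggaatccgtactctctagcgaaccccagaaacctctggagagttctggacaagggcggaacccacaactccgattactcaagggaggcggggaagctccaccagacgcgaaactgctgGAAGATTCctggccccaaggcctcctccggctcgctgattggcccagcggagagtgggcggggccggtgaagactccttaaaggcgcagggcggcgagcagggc

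The heat shock element was in 3 of 5 called genes of that list with a window (Hspa1a, Hspa1b and Hspe1), in 6.29% of tested genes and in 7.73% of all genes. The same 5 windows all held the NF-kB consensus too, which is not marked in the pair printed here.

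**Figure D4:**
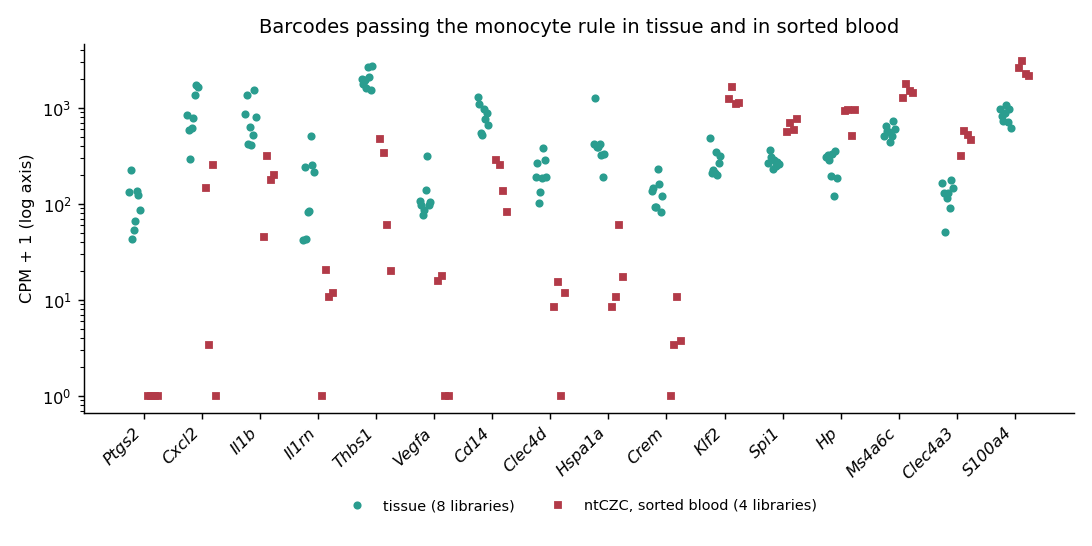
Level of 16 genes (CPM + 1, log axis) in barcodes passing the monocyte rule, 1 point per library, circles for the 8 tissue libraries and squares for the 4 ntCZC libraries of sorted blood. Ptgs2 was at 0 in every blood library and at 42.1 to 225 CPM in tissue, while Klf2 stood at 1106 to 1661 CPM in blood and 202 to 483 CPM in tissue.

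Genes of clotting and repair were mixed, with Thbs1 standing out. Of 12 tested 4 were higher (F10, Thbs1, Vegfa and Areg) and 2 lower (Tgfb1 and Serpinb2), with a median of 0.17. Areg was at 0 UMIs in blood. Thbs1 (chr2:118111876-118127133), the matrix protein thrombospondin 1 that activates TGF-beta, ranged over 1559, 1992 and 2723 CPM in tissue. In the blood libraries it was 18.9, 470.1, 343 and 58.7 CPM. All 8 tissue libraries lay above the highest blood library, and the log2 difference was 3.35 (SE 0.56) and 3.85 in the core. At 18.9 CPM in blood wt replicate 1, Thbs1 passed the filter on counts only through tissue. Other tissue barcodes held 164 to 697 CPM, below every library's monocytes. Vegfa, the growth factor of vessels, differed by 4.17 (log2, edgeR adjusted p = 0.000185) and F10, clotting factor X, by 1.21 (0.000865). Areg, an epidermal growth factor ligand, was at least 11.8-fold higher in tissue.

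Receptors that sense microbes moved in both directions. Of 20 tested 7 were higher and 7 lower, with a median of -0.02. Cd14, the co-receptor for bacterial lipopolysaccharide, ranged over 527, 834 and 1293 CPM in tissue and from 81.2 to 286.5 CPM in blood (log2 2.28, SE 0.31, edgeR adjusted p = 6.71e-05). Clec4d, a C-type lectin for mycobacterial lipid, stood at 101 to 385 CPM in tissue and at most 14.5 CPM in blood (log2 4.60). It passed the filter on counts only through tissue and could only come out higher. Clec4e (log2 2.00), Trem1 (2.08) and Tlr2 (1.43) followed. The Fc receptor genes Fcgr3 (log2 -1.06) and Fcer1g (-0.93) and the adaptor Tyrobp (-0.58) were lower. Fcer1g stood at 1213 to 1950 CPM in tissue and 2806 to 3399 CPM in blood, without overlap.

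Among genes of migration 6 of 17 were higher and 3 lower, the latter near the share over all genes, with a median of 0.08. Cd44, the hyaluronan receptor, ranged over 761, 1073 and 1672 CPM in tissue and from 341 to 548 CPM in blood (log2 1.53, SE 0.19, edgeR adjusted p = 2.45e-05). The chemokine receptors Ccr1 (log2 2.25) and Cxcr4 (2.22) were higher, and both were also called in the core. Pecam1 and Cd9, also higher, are abundant on endothelial cells and platelets, and stood at 112 to 217.5 and 618 to 1478 CPM in the other tissue barcodes. Itga4, the integrin chain that binds VCAM-1, was lower (log2 -1.04), as were Selplg (-0.73) and Itgb7 (-0.55). Itgb7 stood at 0.04 in the core and did not pass there. The main beta 2 integrin gene Itgb2 did not pass (log2 0.02, adjusted p = 0.961).

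Transcription factors were split. Klf2 (chr8:72319033-72321656), which holds monocytes and T cells quiescent, ranged over 202, 246 and 483 CPM in tissue. In the blood libraries it was 1123, 1241, 1661 and 1106 CPM. Every blood library lay above every tissue library, with a log2 difference of -2.07 (SE 0.22, edgeR adjusted p = 5.85e-06) and -2.04 in the core. The other barcodes held 257 to 469 CPM in tissue and 848 to 1893 CPM in blood. Spi1, which encodes the myeloid master factor PU.1, was lower in tissue monocytes (log2 -1.12), as were Cebpa (-1.46), Irf5 (-1.17), Irf8 (-0.71) and Klf13 (-1.48). Among those higher were Bhlhe40 (log2 3.94), a repressor of interleukin 10, Maf (1.59), Runx1 (1.52), Stat3 (1.07) and Nfkb1 (0.56). In all there were 6 higher and 6 lower of 21, with a median of 0.19, and 9 higher and 5 lower in the core.

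Of 22 genes tested that identify classical monocytes, 1 was higher (Gda) and 9 lower, with a median of -0.41, while in the core 5 were higher, 5 lower and the median was -0.04. Ms4a6c ranged over 443.5, 566 and 738.5 CPM in tissue and from 1278 to 1770 CPM in blood (log2 -1.28, SE 0.17, edgeR adjusted p = 4.22e-05), and was lower in the core too (-0.79). Hp, haptoglobin, behaved alike, with -1.55 overall and -0.99 in the core. Csf1r, the growth factor receptor of the lineage, was lower overall (log2 -0.68, adjusted p = 0.0203) and did not pass in the core (-0.20, 0.418). Fn1 did not pass overall (log2 0.00, adjusted p = 0.998) and was higher in the core (0.66, 0.00747), as was Vcan (0.36, 0.386 overall and 0.95, 0.00548 in the core). F13a1 (log2 -0.31, adjusted p = 0.3995) and Plac8 (-0.36, 0.157) passed in neither.

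Of 14 macrophage differentiation genes tested 10 were higher and 1 lower, with a median of 3.23, and in the core 7 of 10 with a median of 1.57. The summed list overlapped between the sites, at 3938 to 22274 CPM in tissue and 3707 to 7446 CPM in blood, with means of 4684 and 5170 CPM in the core. Ctsd ranged over 541, 1020 and 2080 CPM in tissue and from 108 to 130 CPM in blood (log2 3.40, SE 0.33, edgeR adjusted p = 3.20e-06; core 2.05). Spp1, osteopontin, was at 0 UMIs in blood monocytes and higher in tissue, with 5815 CPM in wt replicate 2 and 101 to 446 CPM in the other tissue libraries. Gpnmb stood at 1892 CPM in wt replicate 2 and 3.04 to 71.6 CPM in the other 7 tissue libraries. The other barcodes of the tissue libraries held 334 to 5457 CPM of Spp1. Apoe, the lipid carrier, was the gene lower in tissue (log2 -1.05).

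Of 7 MHC class II genes 0 were higher and 2 lower (H2-DMa, log2 -0.91, and H2-DMb1, -1.21), with a median of -0.62, and in the core 3 of 6 were lower (Cd74 as well) and 0 higher. H2-Aa ranged over 355, 817 and 1170 CPM in tissue, and was 809, 441, 757 and 2593 CPM in the blood libraries. The groups overlapped, and H2-Aa did not pass (log2 -0.10, edgeR adjusted p = 0.847). Of 8 MHC class I genes 1 was higher (Tapbp; B2m and Tapbp in the core) and 3 lower, among them H2-D1 (log2 -0.85) and the immunoproteasome subunit Psmb8 (-1.08). Of 18 interferon-stimulated genes 1 was lower (Ifi27l2a, log2 -1.25), a smaller share than the 14.4% of all genes, with a median of -0.22. In the core 5 of 12 were lower, against 13.3% of all genes, with a median of -0.67.

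Of 13 granule and oxidase genes 6 were lower and 3 higher, with a median of -0.23, and in the core 3 of 9 were lower and 1 higher. S100a4 was lower (log2 -1.46, edgeR adjusted p = 1.33e-05), as were S100a6 (-0.80) and the oxidase subunit Cyba (-0.60). S100a8 (log2 3.18), S100a9 (1 UMI in blood) and Lcn2 were higher, and all 3 are abundant in neutrophils. S100a9 stood at 155 to 1617 CPM in the other tissue barcodes. Glycolysis genes gave 1 higher (Slc2a1) and 1 lower (Eno1) of 9, and nonclassical monocyte genes 4 higher and 2 lower of 13, of which Ear2 and Fabp4 are also alveolar macrophage genes and Fabp4 was at 0 UMIs in blood. Glucocorticoid targets gave 2 higher and 1 lower of 6, cell cycle genes 3 higher of 4, and dendritic cell genes 1 higher and 1 lower of 3.

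**Figure D5:**
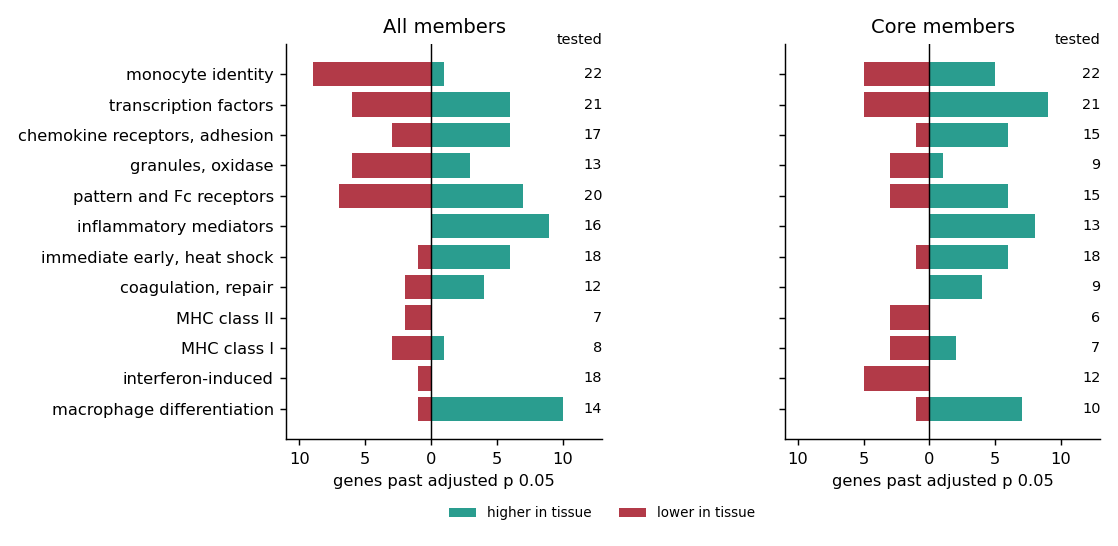
Number of genes of each list past an adjusted p of 0.05, bars to the right for higher and to the left for lower in tissue than in ntCZC, in all monocytes (members) and in the core, with the number tested at the right. Inflammatory genes were higher in 9 of 16 and lower in 0. Of the 9, 3 were at 0 UMIs in blood, and Il1rn and Cxcl2 also passed the filter on counts only through tissue. Monocyte identity genes were higher in 1 and lower in 9 of 22.

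Among genes at least as high in the monocytes as in the other tissue barcodes, the 8 of largest log2 difference higher in tissue were Ptgs2, Ear1, Dmkn, Lhfpl2, Cxcl3, Areg, Crem and Hspa1a. All but Crem and Hspa1a were at 0 UMIs in blood, so the size of their fitted difference, and with it this order, is not a measured value. Dmkn, a secreted protein of skin, was at least 24.998-fold higher, at 33.7 to 127 CPM in tissue monocytes and 7.42 to 19.7 CPM in the other tissue barcodes. Crem, a cyclic AMP responsive factor, stood at 82.1, 128 and 231 CPM in tissue and had 3 UMIs in the blood libraries together. It passed the filter on counts only through tissue and could only come out higher. Ear1 was at least 45.3-fold higher and Lhfpl2 stood at 8.05 to 151 CPM against 0 UMIs, and neither was tested in the core.

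In the other direction the 8 were AY036118, Borcs6, Rnd3, Lyl1, Abi3, Gm9733, Hist1h1e and B3gnt8. Lyl1, a blood stem cell factor, stood at 15.2 to 50.5 CPM in tissue monocytes and 117 to 169 CPM in blood (log2 -2.38, SE 0.26, edgeR adjusted p = 1.03e-05). AY036118 differed by -3.13 (log2), and the other barcodes were split alike, at 17.4 to 164 CPM in tissue and 413 to 1135 CPM in blood. Gm9733 had log2 -2.29, with 706 CPM in null replicate 2 of blood and 235 to 272 CPM in the other 3. Abi3 (-2.37), in whose values the groups overlapped, Borcs6 (-2.74), Rnd3 (-2.50), Hist1h1e (-2.25) and B3gnt8 (-2.20) completed the list.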

How the data were processed

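Per the file headers and the processing notes, the authors made 10x Chromium 3′ libraries and ran Cell Ranger (2.1.1 in the notes, 3.0.2 in the matrix headers) on mm10; the deposited files are filtered matrices of UMI counts per gene and barcode, not normalized. Here barcodes under 200 detected genes or above 25% mitochondrial UMIs were dropped, members were gated by gene, and no doublets were removed. Members' counts were summed per library and given as CPM, scaled to the total UMIs of those members. Libraries with at least 10 members entered edgeR 4.0.16 (R 4.3.3, quasi-likelihood test, TMM scaling, filterByExpr, sex as covariate, Benjamini-Hochberg adjustment); DESeq2 1.42.0 was an alternative. Shares were compared by exact permutation tests (numpy 2.4.6, scipy 1.17.1, scanpy 1.11.5 for Scrublet). Intervals are 95% Clopper-Pearson. Scripts were tested on simulated data. Free RNA was not removed.

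The members, lists and tests were chosen with earlier results of these data known. Genes were named by a fixed rule. Members of the lists were described by counts, median and examples (highest CPM, called, or defining the list). Beyond the lists, the 8 called genes per direction of largest log2 difference with a mean of at least 20 CPM were named, leaving out the rule genes and immunoglobulin, haemoglobin, Xist and Y-linked genes; those higher in tissue than in blood were named only where members held at least the level of the other tissue barcodes. Where none was called, the 3 genes per direction of smallest p were given as values. The 15 genes of largest ratio to the other barcodes were named as a description. The core, and genes named outside these parts, were chosen after values were seen. Replicate numbers did not pair the libraries: correlations of same-numbered libraries' deviations ran from -0.062 to 0.044. Motifs were searched in RefSeq promoter windows, and the promoter sequences printed come from RefSeq (GRCm38.p6). The coding sequences of Ly6c2 and Ly6c1 come from GENCODE vM21. Some genes that this rule names are not reported here.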

Additional observations from a re-analysis of the deposited data

Results flagged for a closer look

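Of 40 sets of library values tested for a library far from its group, 4 stood out, and chance flags about 1 in 20 such groups. Lhfpl2 reached 151 CPM in the monocytes of wt replicate 2 among 8 tissue libraries. Hspa1a, the inducible HSP70, reached 1279 CPM in het replicate 2 among the same 8. Gm9733 reached 706 CPM in null replicate 2 among 4 ntCZC blood libraries. Fmo2, a monooxygenase, reached 42.96 CPM in wt replicate 4 among 4 wt tissue libraries.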

How the results depend on the processing

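The lower share in het and null libraries kept its direction under every alternative tried, all of which leave out the 2 libraries without a group. Per Ptprc-positive barcode the difference was -1.59 percentage points (exact permutation p = 0.0635). The rule needs UMIs of several genes, so depth enters the shares. With barcodes thinned to 1000 UMIs they were 0.323 to 0.675% in het and null and 0.746 to 2.79% in wt (exact permutation p = 0.0159). At that depth wt replicate 2 stood at 0.746%, close to null replicate 2 at 0.675%. Null against wt reached an exact permutation p = 0.0476 without members holding other-class markers (-0.981). Het against wt reached an exact permutation p = 0.0476 with at least 500 genes (-1.85), without Scrublet doublets (-1.71) and without members holding other-class markers (-1.10).

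Counts of genes called by genotype were small or unstable, and the cause was not tested. For het and null, null, and het against wt, DESeq2 called 9, 8 and 9 genes, no filter on low counts 152, 64 and 163, and at least 2 Ly6c2 UMIs 2, 2 and 3. Without the covariate het and null gave 1. Requiring Ccr2 gave 6 for null and 1 for het, and the core 5 for null. Leaving out 1 library gave 0 to 3, 0 to 7 and 0 to 2; the highest were without wt replicate 2 (3 for het and null) and without wt replicate 1 (7 for null, 2 for het).

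Tissue against ntCZC, 1714 genes in the main analysis, gave 1093 with at least 2 Ly6c2 UMIs (747 higher, 346 lower), 1134 without Scrublet doublets, 961 without members holding other-class markers, 980 in the core, 843 in the core without wt replicate 2, and 272 after thinning to 1000 UMIs, where 1130 genes were tested. Leaving out 1 library gave 1262 to 1692. With no filter there were 2341 calls (1832 higher, 509 lower), and scaling by size factors gave 1692 (1031 higher, 661 lower), and sex with genotype as covariates 1402. Itgb7 changed sign in the core (0.037) and in the core without wt replicate 2 (0.032), and Clec4a1 in the latter (0.049). Of the single-gene results under alternatives, 1976 kept direction and call, 194 lost the call, 13 gained it and 3 changed sign.

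With the replicate number as a block (replicate block), the counts were 8 for het and null, 1 for null and 10 for het against wt, and 680 for tissue against ntCZC. The numbers do not pair the libraries, so a call lost under the block is not read as a change in effect size, which is not given here.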
